A study of Mus musculus with 7 samples.

Results

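Broad open regions are stretches where a peak of accessible chromatin was called over 2500 bp or more. No deposited list has peaks less than 101 bp apart, so a called peak may bridge short gaps. They were chosen by that width alone: peaks of at least 2500 bp on chromosomes 1 to 19 were taken from each of 7 ATAC-seq peak lists and merged where they shared at least 1 bp. The rule gave 1144 broad regions from 3036 broad peaks. They lay in 1142 of the 128642 autosomal regions formed by merging all peaks, or 0.888%. Width chose the members, so width values are given as a description and carry no test.

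The mouse libraries were made with Omni-ATAC, in which a transposase cuts and tags open DNA. Ectoderm was peeled with Dispase II from the first pharyngeal arch, the source of the jaws, at embryonic day 11.5 (replicates 1 and 2). At postnatal day 2 (P2), Sox2-positive cells were sorted by fluorescence from the labial cervical loop, where the lower incisor renews its enamel epithelium, of mice that carry a Sox2-GFP reporter (replicates 1 and 2). Whole lower incisor, whole lower first molar and whole upper first molar at P2 gave 1 library each, so values for them have no replicate check. The labels call the sorted cells dental epithelial stem cells. They name no other allele or treatment and do not say whether replicates came from separate animals, so a p-value here measures only the spread between these libraries. A whole tooth holds epithelium, mesenchyme, vessels and nerves, and in such a sample fewer cells of a type and narrower opening per cell cannot be told apart.

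Most accessible sites are short and cover a single promoter or enhancer. Wide accessible stretches are known from promoters with long CpG islands, from clusters of neighbouring enhancers, from the bodies of very actively transcribed genes and from repeated sequence whose reads pile up on a single copy in the assembly. Transcription factors and signalling genes of development often have large CpG islands, and genes needed by every cell also have CpG-rich promoters.

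The promoters of 4 genes show the CpG-rich kind that made up most of the promoters under broad regions. Sox12 (a SoxC-group transcription factor, chr2:152398047-152398296, minus strand), Fzd7 (a Wnt receptor, chr1:59481897-59482146, plus strand) and Klf13 (a Kruppel-like factor, chr7:63938916-63939165, minus strand) were broad in all 7 libraries, and Gli3 (a Hedgehog-pathway transcription factor, chr13:15463473-15463722, plus strand) in 6. The 250 bases before the start site are shown, from RefSeq GRCm38.p6, with each CG in capitals.
Sox12: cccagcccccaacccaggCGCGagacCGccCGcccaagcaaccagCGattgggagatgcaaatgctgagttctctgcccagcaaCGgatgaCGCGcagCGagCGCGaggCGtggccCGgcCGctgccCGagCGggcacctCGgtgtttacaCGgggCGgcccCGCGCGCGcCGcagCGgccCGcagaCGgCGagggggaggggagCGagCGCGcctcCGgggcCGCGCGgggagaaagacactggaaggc
Fzd7: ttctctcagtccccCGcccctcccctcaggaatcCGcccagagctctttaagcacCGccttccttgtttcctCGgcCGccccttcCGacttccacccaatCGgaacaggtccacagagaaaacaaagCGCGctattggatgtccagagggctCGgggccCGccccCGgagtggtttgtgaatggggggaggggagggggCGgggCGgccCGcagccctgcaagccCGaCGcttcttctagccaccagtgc
Klf13: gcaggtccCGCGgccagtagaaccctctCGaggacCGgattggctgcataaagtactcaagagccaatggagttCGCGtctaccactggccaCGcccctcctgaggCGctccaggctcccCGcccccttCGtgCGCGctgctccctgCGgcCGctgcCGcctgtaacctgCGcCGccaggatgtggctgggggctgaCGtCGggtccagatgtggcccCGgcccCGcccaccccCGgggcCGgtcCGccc
Gli3: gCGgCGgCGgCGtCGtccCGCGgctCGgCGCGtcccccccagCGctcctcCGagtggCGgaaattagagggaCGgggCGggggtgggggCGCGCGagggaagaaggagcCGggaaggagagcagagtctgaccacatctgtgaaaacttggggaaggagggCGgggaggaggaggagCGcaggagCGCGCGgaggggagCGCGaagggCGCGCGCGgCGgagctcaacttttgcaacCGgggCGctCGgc

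TATAAA was found in some promoters under broad regions of immediate early and histone genes. The promoters of Fos (an AP-1 subunit, chr12:85473640-85473889, plus strand), Gadd45b (a stress-response gene, chr10:80929841-80930090, plus strand) and the replication-dependent histone gene H2bc8 (chr13:23571150-23571399, plus strand) are shown in the same way, with TATAAA in capitals.
Fos: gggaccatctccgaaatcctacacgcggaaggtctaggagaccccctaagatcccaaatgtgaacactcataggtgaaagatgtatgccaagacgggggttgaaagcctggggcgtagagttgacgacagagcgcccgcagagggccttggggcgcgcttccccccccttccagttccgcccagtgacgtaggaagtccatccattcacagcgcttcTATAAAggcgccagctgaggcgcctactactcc
Gadd45b: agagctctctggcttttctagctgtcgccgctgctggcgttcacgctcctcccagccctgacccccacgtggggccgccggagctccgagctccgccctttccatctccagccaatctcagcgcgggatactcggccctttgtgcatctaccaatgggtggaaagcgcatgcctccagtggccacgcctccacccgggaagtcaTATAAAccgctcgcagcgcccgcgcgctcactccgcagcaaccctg
H2bc8: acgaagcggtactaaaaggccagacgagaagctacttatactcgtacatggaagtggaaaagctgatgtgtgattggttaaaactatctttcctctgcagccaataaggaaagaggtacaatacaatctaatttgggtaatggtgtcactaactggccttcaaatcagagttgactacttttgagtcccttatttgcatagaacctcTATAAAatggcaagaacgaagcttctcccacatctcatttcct

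Starts under broad regions were CpG-rich, as were starts under other regions open everywhere. RefSeq promoters of 300 bases (250 before and 50 after the start) were matched by symbol and lay under a broad region for 1006 starts of 813 genes. Their median observed-over-expected CpG ratio was 0.800. It was 0.795 for 9775 starts under other regions with a peak in all 7 libraries, 0.181 for 6940 starts under no peak and 0.586 for all 20084 promoters. The median number of CG was 25 under broad regions and 22 under the other regions with a peak in all 7, and the median GC content was 66.3% and 62.3%. The 13 promoters of immediate early genes under broad regions had a median ratio of 0.775.

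Short motifs were searched on both strands of the same 300 bases. GGGCGG, the GC box bound by Sp and Klf proteins, was in 74.8% of promoters under broad regions and in 47.0% of all promoters. It was in 70.0% of promoters under other regions with a peak in all 7 libraries. Chromosome 18 starts were not analysed here.

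TATAAA, the core of the TATA box, was in 6.76% of promoters under broad regions, in 5.38% of those under other regions with a peak in all 7 libraries and in 12.7% of all. It was in 6 of 13 promoters of immediate early genes under broad regions (46.2%) and in 9 of all 33 immediate early promoters (27.3%). Of all 69 histone promoters, under broad regions or not, 36 had it (52.2%). These are matches of letters in a fixed window.

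The AP-1 motif TGACTCA was in 2.98% of promoters under broad regions, 2.78% of those under other regions with a peak in all 7, 4.70% of all, and none of those 13.

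The CCAAT box, spelled by its name, was in 35.3% of promoters under broad regions, 38.8% of those under other regions with a peak in all 7, 38.1% of all and 81.2% of the histone promoters.

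The tissue labels were checked at marker genes by asking for a peak with its summit within 1 kb of a gene end. Of 12 embryonic facial ectoderm genes, 12 had such a peak in both ectoderm libraries, 5 in each Sox2-positive library and 7 to 8 in the whole teeth. Of 17 epithelial genes, 14 to 15 had one in the ectoderm, sorted and molar libraries and 11 in the incisor. Trp63 and Lamb3 had none in any library. Of 16 dental mesenchyme genes, 8 had a peak in each ectoderm library, 11 and 10 in Sox2-positive replicates 1 and 2, and 11 to 12 in whole teeth. Of 10 endothelial genes, 5 had a peak in each ectoderm library and 2 and 6 in Sox2-positive replicates 1 and 2. The count was 6 in incisor, 6 in lower molar and 5 in upper molar, so this list did not set ectoderm apart from whole teeth. Dental epithelial progenitor genes had one at 9 or 10 of 10 in every library, so that list did not separate the tissues. Of 8 enamel genes, 3 had one in each ectoderm library, 3 and 2 in Sox2-positive replicates 1 and 2, 3 in incisor, 5 in lower molar and 6 in upper molar. Neural and Schwann genes had one at 4 to 8 of 9 and blood and immune genes at 2 or 3 of 11. Peak lists carry no read counts, so the depth behind each list was unknown.

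Being broad was mostly a matter of degree and not of presence. Of the 1144 regions, 1072 (93.7%) had a peak of some width in all 7 libraries, against 14.2% of all merged autosomal regions. Yet 466 (40.7%) reached 2500 bp in a single library, 234 in 2, 120 in 3, 98 in 4, 88 in 5, 71 in 6 and 67 (5.86%) in all 7. Of the 466, 412 still had a narrower peak in every other library. The median span was 2955.5 bp and the regions covered 3.71 Mb together. A peak counted as present where it shared at least 1 bp with a region. Wide members thus had more room to catch one, and no background of equal width was made.

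**Figure D1:**
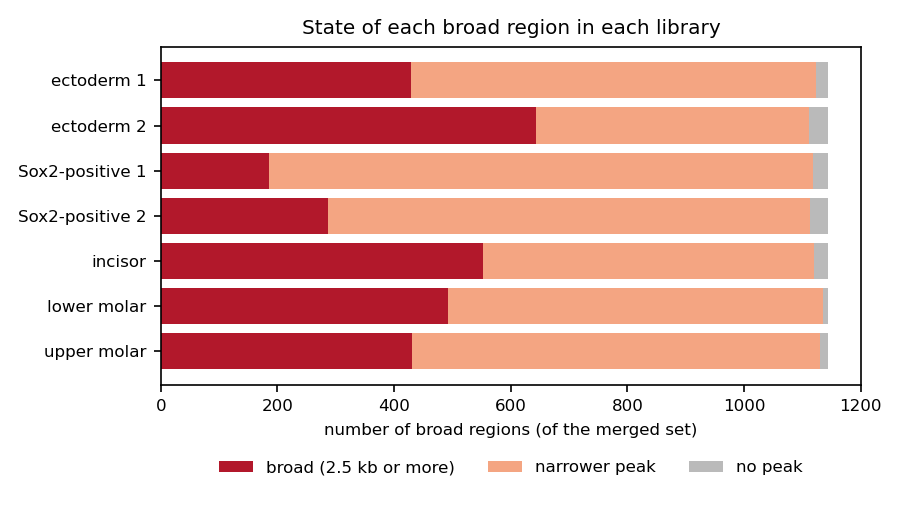
For each library, the bar divides the 1144 merged broad regions into those with a peak of 2.5 kb or more, those with a narrower peak and those with no peak. Regions without a peak are between 9 (lower molar) and 32 (ectoderm replicate 2), while broad ones range from 185 (Sox2-positive replicate 1) to 643 (ectoderm replicate 2).

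Both ectoderm libraries had more broad peaks than both Sox2-positive libraries, and replicates differed widely. Ectoderm replicate 1 had 432 broad peaks of 80850 autosomal peaks and replicate 2 had 647 of 49719, so the shorter list held more of them. Sox2-positive replicate 1 had 186 of 41829 and replicate 2 had 288 of 38326. Incisor had 555 of 62074, lower molar 495 of 68877 and upper molar 433 of 67193.

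The limit of 2500 bp cut through a continuous range of widths. The widest peak was less than 100 bp over the limit in 190 members, and up to 100 bp under it in 231 regions outside the set. Just inside the limit, regions at Ing5 and Nadk and inside Map4 had a widest peak of 2501 bp. The 3 just outside had 2498, 2498 and 2499 bp.

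The broad sets of the replicated groups overlapped in part. The ectoderm replicates shared 341 regions, which was 79.5% of the broad regions of replicate 1 and 53.0% of those of replicate 2. The Sox2-positive replicates shared 103, or 55.7% of replicate 1 and 35.9% of replicate 2. Sox2-positive replicate 2 shared 249 with whole incisor, 86.8% of its own set and 45.0% of the incisor's, and the 2 molars shared 327 (66.3% of lower, 75.9% of upper).

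**Figure D2:**
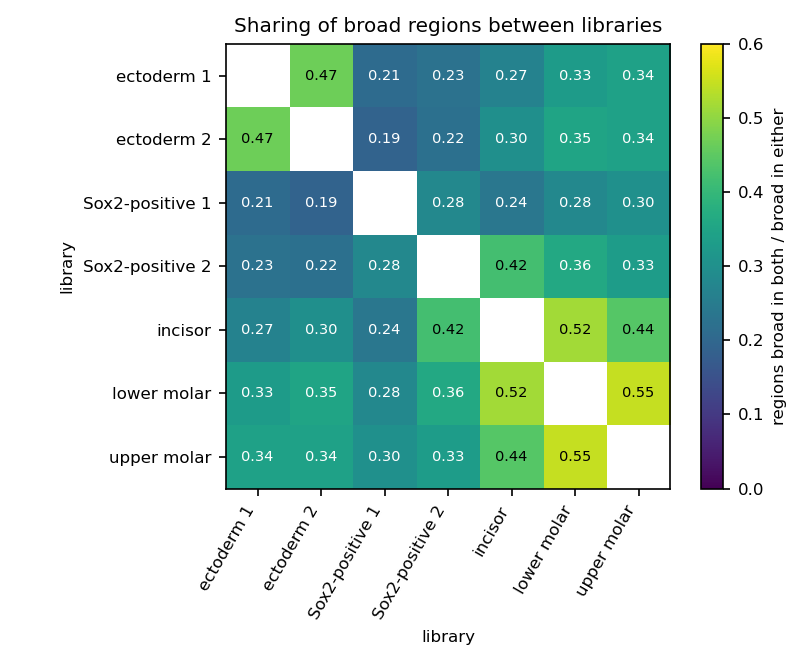
Each cell gives, for a pair of libraries, the number of regions broad in both divided by the number broad in either. The whole teeth lie between 0.44 and 0.55 with each other and the ectoderm replicates at 0.47, while the Sox2-positive replicates stand at 0.28, under the 0.42 of Sox2-positive replicate 2 with incisor.

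Just over 50% of the broad regions had the summit of their widest peak at a gene end. In 628 of 1144 (54.9%, Wilson 95% interval 52.0 to 57.8%) the summit of the widest peak lay within 1 kb of an end of a protein-coding gene, against 11.8% of all merged regions. A closer background is the 17223 regions that had a peak in all 7 libraries and were not broad, of which 51.5% were at a gene end. Members with a peak in all 7 stood at 57.5%, and the 72 that lacked a peak somewhere at 16.7%. The interval covers the counting of regions only. Measured from the region's edge and not the summit, 858 members (75.0%) had a gene end within 1 kb.

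Where strand was known, the gene end was mostly the start, among members and among all regions. On the 18 chromosomes with start sites, 495 of 1118 members (44.3%) were at a 5′ end and 28 at a 3′ end alone, against 8.07% and 1.71% of all regions. Of the members whose summit was over 1 kb from a gene end, 264 lay wholly inside a gene. The other 252 lay between genes or reached over a gene end, as at Midn and Atp5d. Only 42 members (3.67%) had their nearest edge over 50 kb from a protein-coding gene end. For all regions that distance was taken from the summit instead, and 31.8% were over 50 kb away.

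The gene-end share, measured from the summit, did not keep rising with width. Over the 7 libraries it was 5.51 to 10.8% for peaks under 500 bp, 65.5 to 70.7% for 1500 to 2000 bp, 64.2 to 67.5% for 2000 to 2500 bp, and 52.4 to 60.8% at 2500 bp or more. In each library the broad class lay below the 2000 to 2500 bp class. A wide peak can cover a gene end over 1 kb from its summit, and this share does not count it. How much of the drop comes from the measure was not tested.

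**Figure D3:**
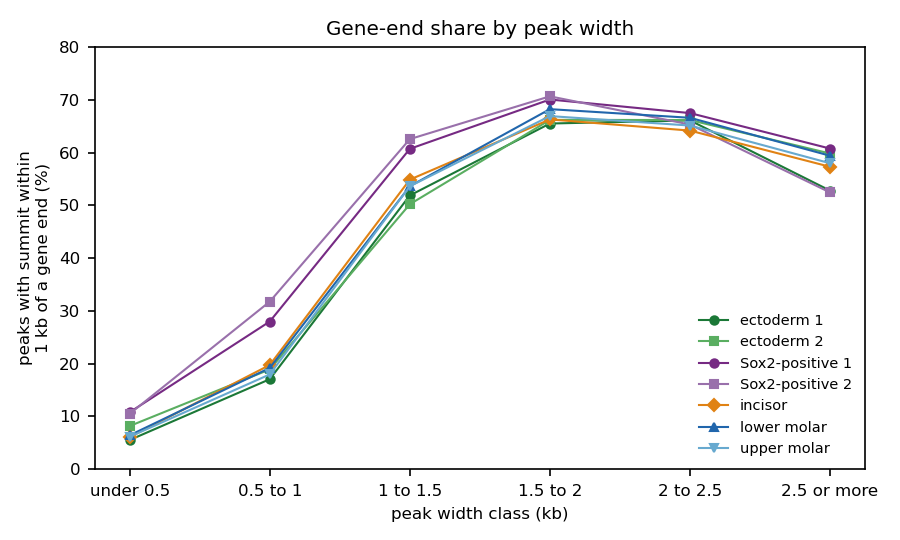
Share of autosomal peaks (%) whose summit lies within 1 kb of a gene end, by width class, with 1 line per library. All lines climb to 1.5 to 2 kb, where they lie between 65.5 and 70.7%, and end lower, between 52.4 and 60.8%, in the class of 2.5 kb or more.

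The tests of this share between ectoderm and P2 libraries did not pass, and group sizes allow no p under the usual threshold. It was 52.8% and 59.8% of broad peaks in ectoderm replicates 1 and 2, 60.8% and 52.4% in Sox2-positive replicates 1 and 2, 57.3% in incisor, 59.4% in lower molar and 58.0% in upper molar. The values of the groups overlapped. Ectoderm (56.3% ± 4.98, SD, n = 2) minus the 5 P2 libraries (57.6% ± 3.17, SD, n = 5) gave -1.27 points, with p = 0.857 in a two-sided exact permutation test, where 21 splits allow no p under 0.0952. Against the Sox2-positive libraries alone (56.6% ± 5.88, SD, n = 2) the difference of -0.295 points had an exact permutation p of 1.0, and 6 splits allow none under 0.333. With a limit of 3000 bp the differences were -4.97 points (exact permutation p = 0.0952) and -3.64 points (p = 0.333), each at the smallest p its splits allow.

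The share of developmental genes at broad regions was above that of all genes, and the share of housekeeping genes was close to it. A gene counted when a broad region came within 1 kb of either of its ends, which held for 1097 of 20661 autosomal protein-coding genes (5.31%). It held for 38 of 273 developmental transcription regulators (13.9%), 26 of 88 developmental signalling genes (29.5%) and 25 of 407 housekeeping genes (6.14%). Of 1452 olfactory and vomeronasal receptor genes, which are silent outside sensory cells, none had a broad region. The lists came from name patterns, genes of a list may share a region, and no test was made of these counts.

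The lists also differed in how many of their genes were open everywhere. A gene-end peak in all 7 libraries was present at 54.1% of all genes, 89.7% of the housekeeping genes and 38.8% of the developmental regulators. Among genes with such a peak, 9.4% of all genes had a broad region, and 36 of 106 developmental regulators (34.0%), 19 of 56 signalling genes (33.9%) and 25 of 365 housekeeping genes (6.85%) did.

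**Figure D4:**
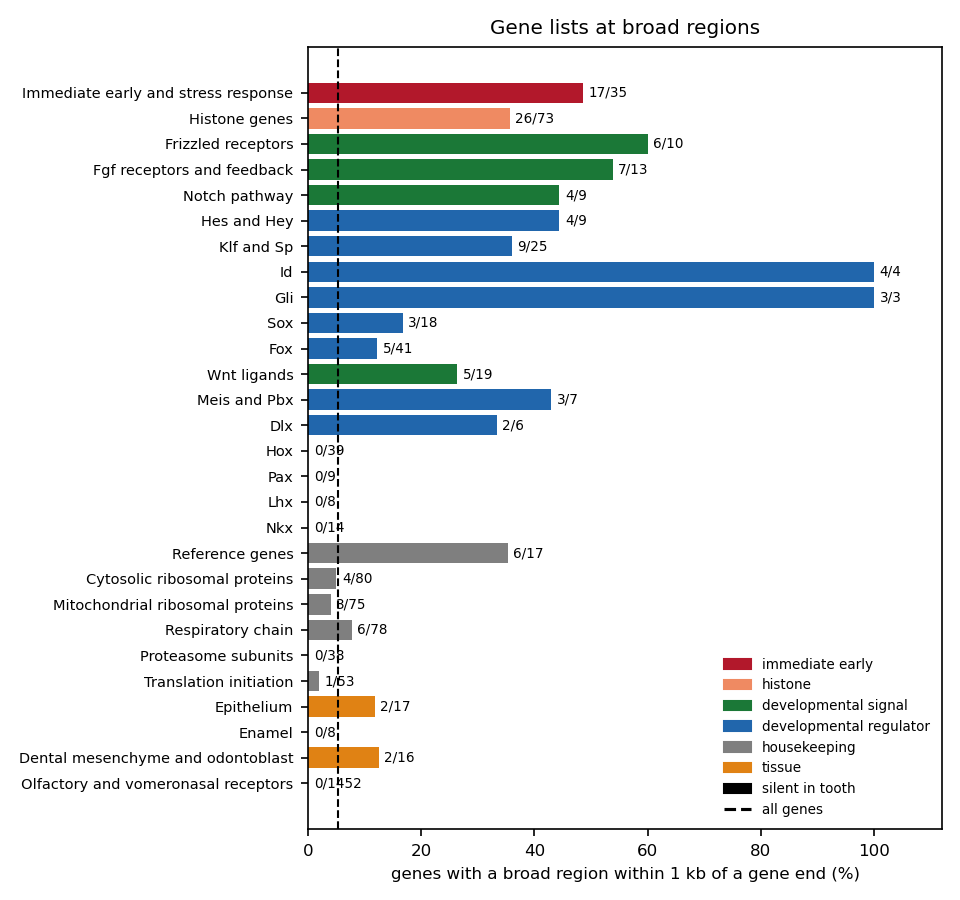
Percent of the genes in each list with a broad region within 1 kb of a gene end, coloured by class, with the count beside each bar. The dashed line marks all genes at 5.31%. Id and Gli genes stand at 100%, immediate early genes at 48.6%, and Hox, Pax, Lhx and Nkx genes, proteasome subunits and receptor genes at 0%.

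Transcription regulator families differed in their counts. None of 39 Hox genes, which are off in the first arch and its derivatives, had a broad region, nor did any of 9 Pax, 14 Nkx, 8 Lhx, 5 Tfap2 or 3 Runx genes, families small enough that the 5.31% of all genes gives few or none. Dlx and Irx genes had 2 of 6 each, as did the family of Six4 and Six5, and Meis and Pbx genes 3 of 7. Homeobox and paired families together had 9 of 118 (7.63%). Of the 28 among them with a gene-end peak in all 7 libraries, 8 (28.6%) had a broad region, against 9.4% of all such genes. The other developmental regulators had 29 of 155 (18.7%), led by Klf and Sp (9 of 25), Id (4 of 4), Gli (3 of 3) and Hes and Hey genes (4 of 9).

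Several regulators were broad everywhere. Sox12 (chr2:152395225-152399523) spanned 3865 and 4247 bp in ectoderm, 4143 and 4299 bp in Sox2-positive cells, 4263 bp in incisor, 4179 bp in lower molar and 4291 bp in upper molar. The 7 values lay within 434 bp of each other. Klf13 (chr7:63937065-63940211) was as even, from 2897 bp in Sox2-positive replicate 2 to 3147 bp in incisor. Klf10 and Klf16, Foxo3 (a forkhead factor of stress and survival) and Six5 with its neighbour Dmpk were also broad in all 7.

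Id genes encode inhibitors of basic helix-loop-helix factors and are targets of BMP signalling, and all 4 were broad in ectoderm replicate 2. Id3 (chr4:136142709-136149187) spanned 3777 and 6238 bp in ectoderm, 2457 and 2602 bp in Sox2-positive cells, 2931 bp in incisor, 3408 bp in lower molar and 3282 bp in upper molar. The ectoderm values were above all others. Id1 had 2955 and 3021 bp in ectoderm, 1518 and 884 bp in Sox2-positive cells, 1205 bp in incisor, 2448 bp in lower molar and 2692 bp in upper molar. Id2 did not show that order, with 1523 and 2540 bp in ectoderm, 2199 bp in incisor and 2321 bp in lower molar.

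The 3 Gli genes carry the Hedgehog signal to the nucleus. Gli1, a direct target of the pathway, had peaks of 2545 and 4045 bp in ectoderm, 4036 and 2362 bp in Sox2-positive cells, 2551 bp in incisor, 2559 bp in lower molar and 4015 bp in upper molar. No group stood apart. Gli3 was below the limit only in Sox2-positive replicate 2 (1931 bp).

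Other regulators had wider peaks in ectoderm than at P2. Meis1, a TALE homeobox partner of Hox proteins, had 2683 and 2955 bp in ectoderm, 920 and 370 bp in Sox2-positive cells, 1228 bp in incisor, 2220 bp in lower molar and 2393 bp in upper molar. Meis2 had 2566 and 2322 bp in ectoderm, at most 257 bp in incisor and lower molar, and no peak in the other P2 libraries. Six4, a placode gene, had 2502 and 2656 bp in ectoderm and 569 to 2248 bp at P2. Both ectoderm values lay above every P2 value at each of these genes, though for Six4 only just above the limit.

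The opposite order was seen at Tbx2 and, in most P2 libraries, at a region shared by Scrn2 and Sp6. Tbx2, a T-box repressor, had 2019 and 2235 bp in ectoderm, 2442 and 2798 bp in Sox2-positive cells, 3667 bp in incisor, 3576 bp in lower molar and 2711 bp in upper molar. The other region had Scrn2 as its nearest gene and came within 1 kb of an end of Sp6 (epiprofin), a zinc-finger factor needed for enamel-forming cells. It had 1314 and 1439 bp in ectoderm and 3049 to 5048 bp in Sox2-positive replicate 2 and the whole teeth. Sox2-positive replicate 1 had 991 bp there, below both ectoderm libraries. Which of the 2 genes the region belongs to was not tested.

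Among signalling genes, of 10 Frizzled genes, which encode Wnt receptors, 6 had a broad region, and of 19 Wnt ligand genes 5 did. Fzd7 (chr1:59480761-59484739) spanned 3532 and 3979 bp in ectoderm, 3533 and 3325 bp in Sox2-positive cells, 3563 bp in incisor, 3733 bp in lower molar and 3771 bp in upper molar. Fzd8 was likewise broad in all 7. No test of receptors against ligands was made.

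Each broad region at a Wnt ligand gene was broad in 1 or 2 libraries. Wnt7b had 3878 and 3848 bp in ectoderm, 423 and 1591 bp in Sox2-positive cells, 683 bp in incisor, 836 bp in lower molar and 865 bp in upper molar. Wnt10b had 2636 and 3230 bp in ectoderm, no peak in Sox2-positive replicate 1 and 835 to 1377 bp elsewhere. The region at Wnt3 and Wnt9b had 2058 and 3588 bp in ectoderm and, at P2, only a peak of 253 bp in upper molar. Wnt3a was the exception among them, with 2801 and 2638 bp in lower and upper molar and 1758 bp or less elsewhere.

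Notch pathway genes had a broad region at 4 of 9, with differing patterns. The receptor gene Notch1 had 2766 and 2852 bp in ectoderm and 1392 to 2283 bp at P2, and the ligand gene Dll1 2541 and 2655 bp against 1115 to 2393 bp. Jag2, another ligand gene, had 3360 and 3869 bp in ectoderm and was also broad in upper molar (3803 bp). A region inside Jag1 that held no known start site was broad in incisor alone (2577 bp), with 1863 and 2387 bp in ectoderm. Hes1, a Notch target, was broad in ectoderm replicate 2 alone (2853 bp), and upper molar (2441 bp) was above ectoderm replicate 1 (2300 bp).

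FGF receptors and feedback genes had a broad region at 7 of 13, FGF ligands at 1 of 20. Spry2, an inhibitor of FGF signalling, had 2666 and 2639 bp in ectoderm, 1217 and 1380 bp in Sox2-positive cells, 2129 bp in incisor, 3170 bp in lower molar and 3447 bp in upper molar. The sorted cells had the narrowest peaks. The region at Letm2 and Fgfr1 had no peak in ectoderm, 3112 and 1043 bp in Sox2-positive cells, 2742 bp in incisor, 4573 bp in lower molar and 3806 bp in upper molar. It held no known start site, and Fgfr1 had a gene-end peak in all 7 libraries, in ectoderm outside this region. Etv5, an FGF-induced ETS factor, was broad only in the 2 molars (2934 and 2531 bp), although every other library but Sox2-positive replicate 2 reached at least 2238 bp.

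At Shh, the Hedgehog ligand gene of the tooth signalling centre, a region of chr5:28454105-28456695 had a peak of 2313 bp in lower molar and 2591 bp in upper molar and none in the other 5 libraries. The region lay 0.145 kb outside the gene and held no known start site. Shh itself was not without peaks in ectoderm, where both libraries had a gene-end peak outside this region.

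**Figure D5:**
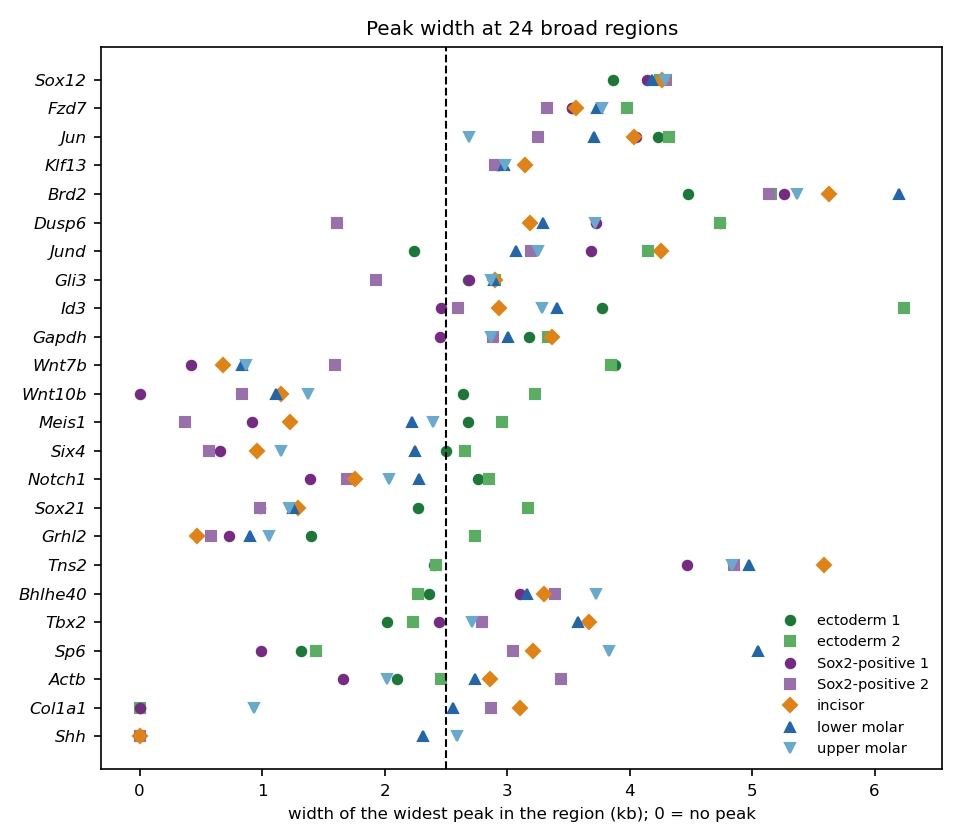
Width in kb of the widest peak in each library at named broad regions, with no peak drawn at 0 and the limit of 2.5 kb dashed. Sox12, Fzd7, Jun and Klf13 lie right of the limit in all 7 libraries, Wnt7b, Wnt10b, Meis1 and Notch1 only in the ectoderm libraries, and Tns2 and Bhlhe40 only in the P2 libraries. The Col1a1 row shows the region just past the gene's end, and the Sp6 row the region shared with Scrn2.

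Immediate early and stress-response genes, which are switched on within minutes of a stimulus, had the highest share of any class: 17 of 35 (48.6%). Among those with a gene-end peak in all 7 libraries it was 17 of 31 (54.8%). By library, 13 were broad in incisor (background 2.7% of genes), 11 in lower molar (2.51%), 7 in upper molar (2.08%), 5 and 6 in ectoderm (1.87% and 3.17%) and 3 and 6 in Sox2-positive cells (0.968% and 1.37%).

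Jun, the AP-1 subunit gene, was the only one broad in all 7. It had 4228 and 4319 bp in ectoderm, 4053 and 3254 bp in Sox2-positive cells, 4032 bp in incisor, 3709 bp in lower molar and 2692 bp in upper molar. Fos had 1645 and 2846 bp in ectoderm, 1415 and 1298 bp in Sox2-positive cells, 2885 bp in incisor, 3026 bp in lower molar and 1281 bp in upper molar. The 2 molars lay on opposite sides of the limit at Fos, as did the ectoderm replicates.

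Dusp6, a phosphatase that damps ERK signalling, had 4738 and 4739 bp in ectoderm, 3723 and 1612 bp in Sox2-positive cells and 3183 to 3714 bp in whole teeth. Fosl2 had 4203 bp in incisor and 4196 bp in lower molar and 1232 to 2226 bp in the other libraries. Myc, a growth regulator, had 4233 bp in ectoderm replicate 1 and 4593 bp in lower molar, and 1733 to 2319 bp elsewhere.

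Histone genes formed the other prominent class. Of 73 histone genes 26 (35.6%) stood at a broad region, but they shared 10 regions, since the genes of replication-dependent histones lie in clusters. In ectoderm replicate 2, 25 of the 26 were broad, against 11 in replicate 1, 3 and 0 in Sox2-positive cells, 4 in incisor, 3 in lower molar and 5 in upper molar. Without ectoderm replicate 2 the share was 16.4% of the 73 genes.

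The largest of them, chr13:23570163-23576928, held the starts of H2ac7, H2ac8, H2bc7, H2bc8 and H3c4. Its widest peak was 2129 and 6766 bp in ectoderm, 1541 and 1308 bp in Sox2-positive cells, 1281 bp in incisor, 1342 bp in lower molar and 1543 bp in upper molar. The value of 6766 bp was a peak that ran over several genes in a single library. The region at H4c1, H3c1 and H1f1 was instead broad in 6 libraries, from 2747 to 2835 bp, and 2140 bp in Sox2-positive replicate 2.

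Where a gene-end peak was present in all 7 libraries, its median width was 1129 bp at housekeeping genes, 1490.5 bp at developmental regulators and 1184 bp at all genes. No proteasome subunit gene of 38 had a broad region, 4 of 80 cytosolic ribosomal protein genes did and 6 of 78 respiratory chain genes (7.69%).

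Housekeeping lists above the 5.31% of all genes by more than a few points were genes used as expression standards, with 6 of 17 (35.3%), and RNA polymerase II subunits, with 3 of 13 (23.1%). The region at Polr2h and Clcn2 was broad in all 7 libraries (2576 to 3280 bp). Without the expression standards the housekeeping class stood at 4.87%. Gapdh, a glycolytic enzyme gene, had 3175 and 3335 bp in ectoderm, 2453 and 2886 bp in Sox2-positive cells, 3368 bp in incisor, 3007 bp in lower molar and 2867 bp in upper molar. Actb, the beta-actin gene, was broad in Sox2-positive replicate 2 (3442 bp), incisor (2858 bp) and lower molar (2734 bp) and 1660 to 2460 bp elsewhere.

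Regions broad in both ectoderm libraries and no P2 library numbered 92, of which 45 were at a gene end and 84 had a peak in all 7. At Epha4, an ephrin receptor gene, the widest peak was 3630 and 3645 bp in ectoderm, 933 and 806 bp in Sox2-positive cells and 2342 to 2411 bp in whole teeth. A region 3.77 kb from Zbtb34 (chr2:33435095-33438135) had 2633 and 3004 bp in ectoderm and no peak at P2. At Carm1 and Rsf1 the P2 peaks reached up to 2480 and 2462 bp, so that pattern there rested on the limit.

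Regions broad in all 5 P2 libraries and in neither ectoderm library numbered 8. Tns2, a focal adhesion gene, had 2407 and 2423 bp in ectoderm, 4468 and 4849 bp in Sox2-positive cells, 5588 bp in incisor, 4974 bp in lower molar and 4839 bp in upper molar. Bhlhe40, a clock and stress-linked repressor, had 2359 and 2270 bp in ectoderm and 3109 to 3724 bp at P2. A region inside Dnmt3a, a DNA methyltransferase gene, had 1483 and 1565 bp in ectoderm and 2843 to 3334 bp at P2, and one holding the start of Rara, a retinoic acid receptor gene, had 2297 and 2482 bp against 3142 to 6706 bp.

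Only 1 region was broad in both Sox2-positive libraries and nowhere else. It lay at Il3ra, an interleukin receptor gene, with 3657 and 3161 bp in Sox2-positive cells and 1387 to 1914 bp elsewhere. It was among 16 regions broad in both Sox2-positive libraries and in neither ectoderm library, of which 8 were those broad in all P2 libraries. Regions inside the Ugt1a cluster and in Mroh2a had peaks of 2547 and 789 bp, 1189 and 2726 bp, and 2912 and 1943 bp in the sorted cells, with 1 further peak of 1278 bp in lower molar.

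Regions broad in whole teeth alone numbered 21, in both molars alone 20 and in incisor alone 100. At a region by Ulk4 and Ctnnb1, the beta-catenin gene, the peak was 2327 and 2311 bp in ectoderm and absent in both Sox2-positive libraries. It was 2570 bp in incisor, 5059 bp in lower molar and 5102 bp in upper molar. That region held no known start site, so it does not describe the start of either gene. At Tgfb1 and B9d2 the peak was 5097 bp in incisor, 3534 and 3707 bp in the molars and 1718 to 2479 bp elsewhere. Incisor-only regions at Srsf2 and Cirbp, which encode RNA-binding proteins, had peaks of 2697 and 2949 bp in incisor, and at each gene another library reached at least 2463 bp.

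The type I collagen gene Col1a1, a product of odontoblasts and bone cells, was open along its body in some P2 libraries. A region inside it, chr11:94940530-94951510, had no peak in ectoderm replicate 1, 347 bp in ectoderm replicate 2, 289 and 10981 bp in Sox2-positive cells, 7229 bp in incisor, 3333 bp in lower molar and 938 bp in upper molar. The region past its end had no peak in either ectoderm library or in Sox2-positive replicate 1, and 2872 bp in Sox2-positive replicate 2, 3102 bp in incisor, 2556 bp in lower molar and 931 bp in upper molar. The sorted replicates were on opposite sides at both regions.

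A region inside Agpat2 came within 1 kb of an end of the endothelial gene Egfl7. It had 211 bp in ectoderm replicate 1, no peak in ectoderm replicate 2, and 625 and 3340 bp in Sox2-positive cells. Incisor had 1972 bp there, lower molar 2049 bp and upper molar 630 bp. Egfl7 had no gene-end peak by summit in lower molar. The whole mesenchyme list did not separate the Sox2-positive replicates (11 and 10 of 16 with a gene-end peak). The endothelial list differed between them (2 and 6 of 10, with Pecam1 and Cdh5 at none in both). Each ectoderm library had 5 of those 10, so the count does not mark endothelial cells. The part of other cell types in these regions was not tested.

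The widest members were of several kinds. A region inside Sfi1, a centrosome gene, at chr11:3184170-3200110 had 2134 and 6590 bp in ectoderm, 15911 and 14398 bp in Sox2-positive cells, 14379 bp in incisor, 14398 bp in lower molar and 14375 bp in upper molar. The region at Midn and Atp5d reached 9701 bp in Sox2-positive replicate 2 and was 3055 bp in ectoderm replicate 1. Others lay inside Plec, a cytolinker gene (2872 to 7839 bp), inside Gse1 (4417 to 6090 bp) and at Brd2, a chromatin reader gene, with H2-DMa (4480 to 6202 bp). The Six5 and Dmpk region was also among the 15 of largest median width (4181 to 5558 bp).

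A region with nearly the same width in every library, within 12 bp, lay at chr17:39842942-39848887, 102 kb from the nearest gene end, over the ribosomal RNA-related pseudogene Rn18s-rs5 and the long noncoding RNA AY036118. Its widths were 5945 and 5946 bp in ectoderm, 5940 and 5946 bp in Sox2-positive cells, 5940 bp in incisor, 5934 bp in lower molar and 5941 bp in upper molar. That range of 12 bp was 0.202% of the median width, where the 67 regions broad in all 7 had a median range of 24.2%. No repeat annotation of the build was used, so the share of members in repeats was not analysed here.

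Broad regions also lay near genes of small RNAs. Of 919 autosomal miRNA genes, 26 (2.83%) were within 1 kb of a broad region, against 5.31% of protein-coding genes. Measured from the widest summit, 10 broad regions (0.874%) had a miRNA gene within 1 kb, against 0.216% of all merged regions. The mature forms of 4 of them are shown from RefSeq, 5′ to 3′, with the seed (bases 2 to 8) in capitals, because they show the range of patterns, and no seed is shared among them.
let-7e-5p: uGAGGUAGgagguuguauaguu
miR-22-3p: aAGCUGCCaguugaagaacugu
miR-130a-3p: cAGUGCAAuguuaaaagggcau
miR-338-3p: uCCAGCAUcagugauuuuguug
Each of these 4 hairpins lay outside its region, within 1 kb of the edge. The let-7e region was broad in all 7 libraries (3051 to 3805 bp). The miR-22 region had 1883 and 3309 bp in ectoderm, 2422 and 3231 bp in Sox2-positive cells, 3428 bp in incisor, 3195 bp in lower molar and 2073 bp in upper molar. The miR-130a region was broad in the 2 ectoderm libraries alone (2835 and 2846 bp), and the miR-338 region in Sox2-positive replicate 2 and incisor alone (2599 and 2733 bp).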

How the data were processed

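The 7 mouse libraries were profiled by ATAC-seq. Per the submitters' processing notes, FastQC, Trimmomatic, Bowtie2, deepTools and Genrich were used with build mm10. Versions, options, read filters and the handling of the transposase offset are not given in the sources used here. The authors deposited 1 peak list per library. The deposited signal of each peak was at least 200.001 and was not compared between libraries. The deposited −log10 p-value ranged from 2.56 to 17.8 and served only to equalise list lengths. No column holds read counts, so depth is unknown and wide peaks may depend on it.

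Widths, merging (at least 1 bp shared), gene ends (within 1 kb, RefSeq GRCm38.p6, 20661 autosomal protein-coding genes) and shares were computed with Python 3.11.15, pandas 2.3.3, NumPy 2.4.6 and SciPy 1.17.1, and drawn with matplotlib 3.10.9. Strand was known for 79.6% of genes. Regional gene-end shares use the summit of the widest peak, and gene counts use the region's edge. Shares carry Wilson 95% intervals. Groups were compared by exact permutation over libraries, two-sided, by doubling the smaller tail. The code was tested on simulated data.

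The members and gene lists were chosen with earlier results of these data known. Genes were named by rule: the 15 regions of largest median width, the 6 largest in each library pattern and the 6 largest over 50 kb from a gene end, up to 8 genes per list, and the 3 regions on either side of the limit. Regions without a peak in some library, at miRNA or tRNA genes, and Fos, Fosl2, Myc, Neat1 and the Col1a1 and Ugt1a regions were added after their values were seen. Width limits, joining of peaks, list length, gene-end windows, sex chromosomes and single replicates were varied. Width deviations of same-numbered ectoderm and Sox2-positive libraries correlated at -0.000168 over members and -0.0137 over all regions. The widths thus showed no pairing by replicate number, but they cannot tell whether same-numbered libraries were handled together.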

Additional observations from a re-analysis of the deposited data

Results flagged for a closer look

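Broad peaks outside chromosomes 1 to 19 were not part of the comparisons and are listed because they lie in data those comparisons did not use. Over the 7 libraries together there were 13 peaks of 2500 bp or more on chromosome X, 4 on chromosome Y and 50 on unplaced contigs. The 4 on chromosome Y were all in ectoderm, 2 in each replicate. The unplaced contigs had 2 and 6 in ectoderm, 10 and 8 in Sox2-positive cells and 8 in each whole tooth. No control library exists for this assay here, and no read counts stand behind these numbers.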

How the results depend on the processing

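Depth behind the peak lists is unknown, and both tests rest on groups of 2. With a limit of 2000 bp there were 2899 regions, with 60.1% at gene ends, 23.8% of developmental regulators, 13.8% of housekeeping genes (12.7% of all genes) and 8.66% broad in all 7, and the ectoderm minus P2 difference turned to 0.123 points. With 3000 bp there were 504 regions, with 6.96% of developmental regulators, 3.44% of housekeeping genes (2.52% of all genes) and 4.17% broad in all 7, and the differences were -4.97 and -3.64 points. The gene-end share was 44.3% within 500 bp and 75.2% within 2.5 kb. Joining peaks up to 100 bp apart changed nothing, since gaps were at least 101 bp. Joining up to 300 bp, chosen after seeing the data, gave 1724 regions, 19.05% of developmental regulators (7.56% of all genes) and 9.28% broad in all 7. Taking the 500 widest peaks, adding X and Y, or equal list lengths moved no planned result beyond its counting interval or 1.5 times.

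Leaving out each replicate gave 964 to 1130 regions, a gene-end share of 53.6 to 55.6%, developmental regulators at 10.99 to 13.9%, housekeeping at 4.91 to 6.14% and 6.95 to 9.29% broad in all remaining libraries, which are then fewer. The ectoderm minus P2 difference ran from -4.79 to 2.25 points and turned positive without ectoderm replicate 1. The ectoderm minus Sox2-positive difference ran from -4.46 to 3.87 points and was positive without ectoderm replicate 1 (3.22) or Sox2-positive replicate 1 (3.87). Neither passed its test under any setting, and none of these group sizes can reach the usual threshold. The cause was not tested. With the replicate number as a block, the ectoderm minus Sox2-positive difference was -0.295 points (sign-flip exact permutation p = 1.0), though the widths showed no pairing by number. Immediate early genes stood at 62.9% with 2000 bp. The promoter values were computed with 1 setting.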

Other observations

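Transfer RNA genes, which are read by RNA polymerase III, lay within 1 kb of the widest summit in 10 broad regions (0.874%, against 0.162% of all merged regions), and in 8 of the 10 that summit was over 1 kb from a protein-coding gene end. These regions were looked up after the data were seen. At Osbp, with 4 tRNA genes within 1 kb, the widest peak was 3123 and 3513 bp in ectoderm, 991 and 1257 bp in Sox2-positive cells, 1250 bp in incisor, 1631 bp in lower molar and 1280 bp in upper molar. Near Trim7 it was 2570 and 2653 bp in ectoderm and 1160 to 1908 bp at P2, and near Rnase4 3341 and 3856 bp against 1244 to 1858 bp. The tRNA regions at Hes7 and Fmc1 were broad in 6 libraries each.

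A region at Neat1, the long noncoding RNA that builds paraspeckles, was 4870 bp wide in incisor and at most 1088 bp elsewhere, with no peak in ectoderm replicate 2. Incisor has 1 library, so this has no replicate check. Broad peaks with a single start inside ran further downstream than upstream of it in 54.9 to 68.8% of cases per library, against 63.4 to 68.7% of narrower peaks.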
